A study of Homo sapiens with 4 samples.

Results

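The regions described here are the peak summits of Star-PAP HITS-CLIP that fell inside protein-coding sequence (CDS), sorted by where along the reading frame and in which exon they lay. Members were all summits on chromosomes 1 to 22 whose base was CDS in any protein-coding transcript of GENCODE release 44 on hg19, a rule that used position alone and no measured value. There were 3741 such summits among 382958 autosomal summits in control cells, 9778 among 306360 after Star-PAP depletion (siStar-PAP) and 8699 among 276105 after RBM10 depletion (siRBM10), which makes 22218 of 965423 in all. HITS-CLIP crosslinks proteins to RNA in living cells with UV light, pulls the protein down and sequences the attached RNA fragments. The study used HEK293 cells, a human embryonic kidney line, crosslinked at 400 mJ/cm2, and compared Star-PAP pull-downs from control cells, siStar-PAP cells and siRBM10 cells with an IgG pull-down as reference. Per the labels, siRNA oligos were transfected with Oligofectamine and cells were harvested after 48 h, whereas the methods name calcium phosphate, and the label of the control library names no siRNA. Depletion was transient, each condition had 1 library, and all 3 peak lists were called against the same IgG library.

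Star-PAP, encoded by TUT1, is a non-canonical poly(A) polymerase of the nucleus that adds poly(A) tails to selected mRNAs, and RBM10 is an RNA-binding protein known as a splicing regulator that works with Star-PAP on some mRNAs. The CDS of most human genes is cut into short exons. The first coding exon holds the start codon and is often rich in G and C, inner exons hold codons alone, and the last coding exon holds the stop codon next to the 3′-UTR, where poly(A) polymerases act. A summit in CDS can come from mature mRNA or from pre-mRNA, which the lists cannot tell apart. The lists hold no reads and no strand, so whether the fragments behind a summit were crosslinked RNA or DNA carried over from another library was not tested, and every density given here is that of called summits, whatever their source.

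Each list gave for every peak a summit of 1 bp and a score, the −log10 of the peak caller's p-value, without strand, width, tag number or read total, so the depth of each library was unknown here. The strand printed below is that of the gene. Peaks were called with a fragment size of 500 bp, whereas the median coding exon was 124 nt long, which limits how well a summit can be assigned to an exon. In the control list, 44.9% of CDS summits carried its commonest score, 1.33, against 9.72% at 2.92 in siStar-PAP and 11.9% at 3.25 in siRBM10. Because no condition was replicated, conditions were not tested against each other. Intervals are 95% intervals (Wilson for shares, exact Poisson for counts and ratios) and cover counting error only, not the spread between cultures. Cell identity could not be checked from marker genes, because the lists hold peaks and no expression values. TUT1 itself held 4 CDS summits in control, 4 in siStar-PAP and 0 in siRBM10, and these counts do not measure its depletion.

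The following 29-nt stretches of hg19, written on the strand of the gene with the summit base in capitals, show what the strongest and the most densely placed CDS summits looked like. The first 4 are among the highest scores in CDS, in repeat-rich or charge-rich coding exons of DSPP, MUC4, LUC7L3 and HSP90AA1.
DSPP, control, chr4:88536908-88536936, plus strand: gacagcagcgatagCagtgacagcagcga
MUC4, control, chr3:195511958-195511986, minus strand: aggtcacgccacctCtcttcctgtcaccg
LUC7L3, siStar-PAP, chr17:48823153-48823181, plus strand: gaaagagaaaaagaAcgggagagagaaag
HSP90AA1, siRBM10, chr14:102551265-102551293, minus strand: gaagaaaaggaagaCaaagaagaagaaaa
The next 4 come from genes among the 10 with the most CDS summits per kb in siStar-PAP or siRBM10, for EEF2 in siRBM10 alone. In SMAD4 and MAP2K4 the siStar-PAP and siRBM10 summits lay on the same base.
SMAD4 exon 5, siStar-PAP and siRBM10, chr18:48584574-48584602, plus strand: gcagaatggatttaCtggtcagccagcta
SMAD4 exon 8, siStar-PAP and siRBM10, chr18:48591841-48591869, plus strand: taggagagacatttAaggttccttcaagc
MAP2K4 exon 10, siStar-PAP and siRBM10, chr17:12043146-12043174, plus strand: gttattttagccttAcgaaggatgaatcc
EEF2 exon 15, siStar-PAP, chr19:3976659-3976687, minus strand: tgaccactggcagaTcctgcccggagacc
The last is from BORA, among the genes densest in summits in the control list. It is AU-rich, with 20.7% G and C, and its summit had a score of 1.33. Stretches around the other BORA control summits had 55.2% and 48.3% G and C.
BORA exon 6, control, chr13:73318672-73318700, plus strand: gtggattttaatttAgaaaatatattagg

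Over all deposited summits, coding sequence held a smaller share in control cells than its share of the genome and a larger share in both depleted libraries, and the control direction turned with a stricter threshold. CDS made up 1.26% of the determined autosomal bases. Of the autosomal summits, 0.977% (0.946 to 1.01) lay in CDS in control, 3.19% (3.13 to 3.25) in siStar-PAP and 3.15% (3.09 to 3.22) in siRBM10. The ratio to the base share was 0.777 in control, 2.54 in siStar-PAP and 2.51 in siRBM10. Expressed as density, control had 110.9 summits per Mb of CDS against 142.7 per Mb of autosome, siStar-PAP 289.9 against 114.1, and siRBM10 257.9 against 102.8. The number of CDS summits in siStar-PAP was 2.61 times (2.52 to 2.71) that of control although the whole list was shorter, and that of siRBM10 was 2.33 times (2.24 to 2.42) that of control. Depth and calling sensitivity of the libraries differed by an unknown amount, and their part in these differences was not tested. When only summits with p at most 0.01 were kept, the share was 1.46% (1.39 to 1.53) in control, above the base share of 1.26%, 2.81% in siStar-PAP and 2.61% in siRBM10.

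The density of summits fell from coding exons into the introns in the depleted libraries, whereas in control it fell near the exon and rose again farther out. In siStar-PAP, introns had 251.1 summits per Mb within 50 bp of a coding exon, 215.8 from 51 to 100 bp, 165.2 beyond 100 and up to 200 bp, 151.8 beyond 200 and up to 500 bp, and 126.5 farther away. In siRBM10 the same distances had 204.8, 158.8, 127.4, 135.1 and 111.7 summits per Mb. In control the coding exons had 110.9 summits per Mb (107.4 to 114.5), and the introns had 99.8 (95 to 104.7) within 50 bp, 99.4 from 51 to 100 bp, 106.7 beyond 100 and up to 200 bp, 115.5 beyond 200 and up to 500 bp, and 146.1 farther away. The 2 sides of an exon were unequal in the depleted libraries. Within 100 bp upstream of a coding exon, siStar-PAP had 283.3 summits per Mb (275.2 to 291.5) against 194.6 (187.9 to 201.5) downstream, and siRBM10 had 220.1 (213.0 to 227.4) against 153.3 (147.4 to 159.5). Control had 99.6 upstream and 98.6 downstream, with overlapping intervals.

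Within the exons the same lean appeared. Inner coding exons from 100 to under 500 nt held 1853 control, 4558 siStar-PAP and 4113 siRBM10 summits, and each was cut into 5 equal pieces from its 5′ to its 3′ end, so that an even spread would give 20% each. From 5′ to 3′, siStar-PAP had 24.2%, 21.9%, 19.96%, 18.9% and 15.0% of the summits, and siRBM10 had 26.7%, 23.1%, 19.7%, 16.8% and 13.6%. The control shares were 18.3%, 19.7%, 19.6%, 22.3% and 20.1%, with no fall along the exon. The share of the 5′-most piece was 24.2% (23 to 25.5) in siStar-PAP and 26.7% (25.4 to 28.1) in siRBM10, above the 18.3% (16.6 to 20.1) in control. With p at most 0.01 these shares were 24.9%, 25.8% and 19.0%. Strand enters here through the annotation of the gene and not through the reads.

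**Figure D1:**
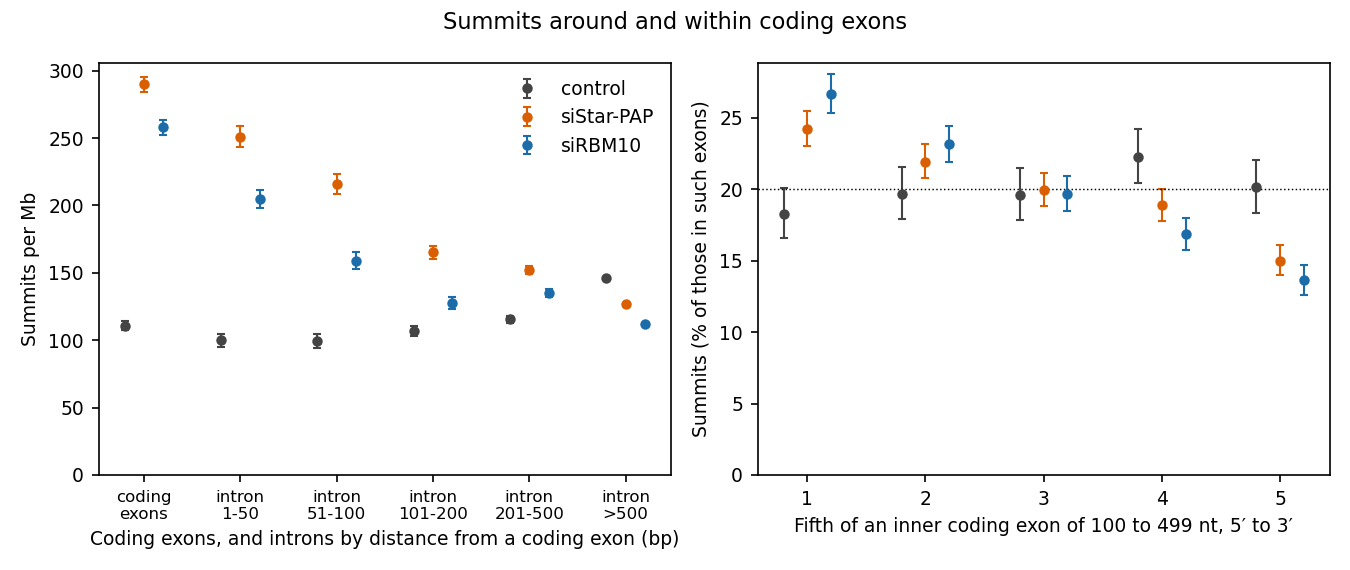
Left, summits per Mb in coding exons and in introns by distance from a coding exon (bp), and right, the percentage of summits in each of 5 equal pieces of inner coding exons from 100 to under 500 nt, for the 3 libraries with 95% intervals and a dotted line at an even share. Density dropped from 289.9 to 126.5 per Mb in siStar-PAP and from 257.9 to 111.7 in siRBM10, and both leaned to the 5′ end of the exon, whereas control had 110.9 per Mb in coding exons, 99.8 within 50 bp of them and 146.1 far into introns and showed no lean.

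For position along the reading frame, each summit was placed on the reference CDS of its gene, the Ensembl canonical transcript in 18643 of 18893 autosomal genes. This placed 3550 control, 9274 siStar-PAP and 8258 siRBM10 summits on the reference CDS of exactly 1 gene (94.9%, 94.8% and 94.9%). Observed numbers were divided by the number expected if the summits of each gene had been spread evenly over the bases of that same CDS.

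Over all placed summits, the spread was nearly even from start codon to stop codon, with a shortage at the start in control and an excess at the end in the depleted libraries. The median summit lay 51.4% of the way along the CDS in control, 51.5% in siStar-PAP and 51.9% in siRBM10. In the first decile of the CDS, control had 279 summits, 0.781 times (0.692 to 0.878) the expected number, while siStar-PAP had 0.969 times and siRBM10 0.953 times. In the last decile, siStar-PAP had 1042 summits, 1.12 times (1.06 to 1.19) the expected number, siRBM10 1.09 times (1.02 to 1.16) and control 1.0 times. The deciles between ranged from 0.95 to 1.13 in control, from 0.925 to 1.05 in siStar-PAP and from 0.942 to 1.05 in siRBM10. In the 100 nt behind the start codon, control had 146 summits, 0.747 times (0.631 to 0.879) the expected number, against 0.948 times in siStar-PAP and 0.957 times in siRBM10. In the 100 nt before the stop codon the ratios were 1.04, 1.10 and 1.09. With p at most 0.01, the first decile was at 0.85 (0.721 to 0.997) in control, 0.942 in siStar-PAP and 0.923 in siRBM10, and the last decile at 0.956, 1.10 (1.02 to 1.18) and 1.07 (0.992 to 1.16). Among the 1000 CDS summits of highest score, the first decile was at 0.742 (0.579 to 0.938) in control, 0.758 (0.594 to 0.953) in siStar-PAP and 0.759 in siRBM10. The shortage at the start was thus not particular to control among the strongest summits.

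**Figure D2:**
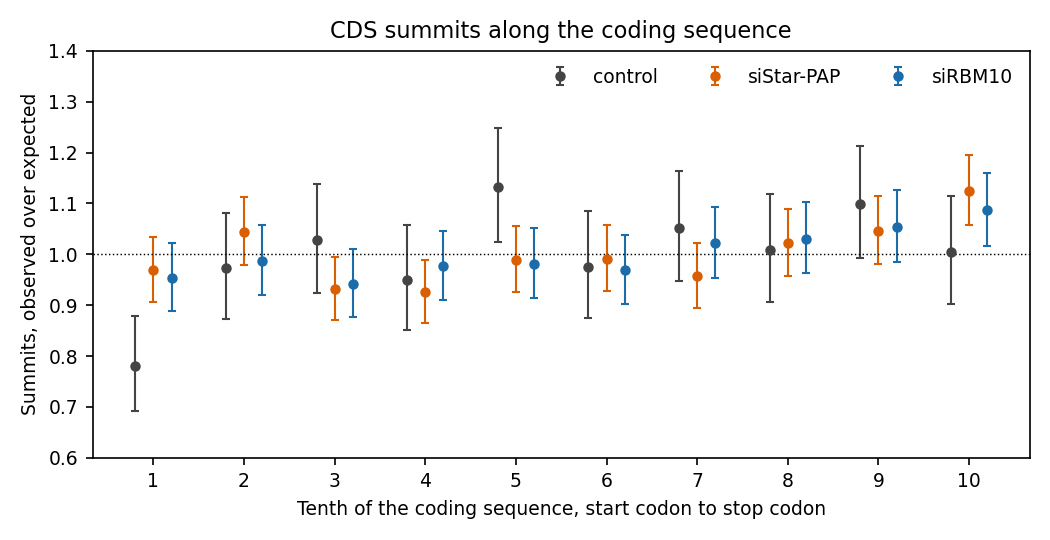
Observed over expected summits in each decile of the CDS from start codon to stop codon, with exact 95% Poisson intervals and a dotted line at 1. The first decile of the control library was low at 0.781, and the last decile was at 1.12 in siStar-PAP and 1.09 in siRBM10.

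The same split stood out by exon. First coding exons were short of summits in control and last coding exons had an excess in the depleted libraries. Control had 254 summits in first coding exons, 0.780 times (0.687 to 0.882) the number expected from the same CDS, against 950 and 0.968 times (0.907 to 1.03) in siStar-PAP and 820 and 0.963 times (0.898 to 1.03) in siRBM10. Inner exons held most summits, 2530, 6194 and 5537, with ratios of 1.01, 0.963 and 0.959. Last coding exons held 548 control summits, 1.07 times (0.983 to 1.16) the expected number, 1683 siStar-PAP summits, 1.19 times (1.13 to 1.25), and 1464 siRBM10 summits, 1.23 times (1.16 to 1.29). With p at most 0.01 this split was lost in first coding exons, with ratios of 0.889 (0.758 to 1.04) in control, 0.916 (0.846 to 0.99) in siStar-PAP and 0.845 (0.773 to 0.922) in siRBM10, and last coding exons were at 1.07, 1.18 and 1.22. Genes with a single coding exon held 218, 447 and 437 summits, which was 6.14%, 4.82% and 5.29% of the placed summits beside 6.36% of all reference CDS bases.

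GC content moved with these positions. A window reaching 100 nt to either side of a base averaged 60.1% G and C over the bases of first coding exons, 49.3% over inner, 52.2% over last and 54.5% over single coding exons. Around the summits, the mean was 48.97% in control, 55.5% in siStar-PAP and 54.3% in siRBM10, beside 51.2% over all reference CDS bases. When expected positions were drawn from the same CDS and the same 5% class of GC content, an alternative added after the data were seen, the ratio of first coding exons in control was 0.95 (0.837 to 1.07) and that of its first decile 0.929 (0.823 to 1.04). Last coding exons then had 1.10 times (1.04 to 1.15) the expected number in siStar-PAP, 1.12 times (1.07 to 1.18) in siRBM10 and 1.01 times in control. The last decile was then at 1.05 (0.984 to 1.11) in siStar-PAP and 1.02 (0.958 to 1.09) in siRBM10, and both intervals included 1. Compared with all reference CDS, stretches under 40% G and C had 1.141 times the expected summits in control but 0.411 times in siStar-PAP and 0.433 times in siRBM10. Stretches of 60 to 69% had 0.744, 1.502 and 1.243 times the expected number.

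Short coding exons held fewer summits than their bases would give, most of all in the depleted libraries. In exons under 100 nt, the ratio was 0.877 (0.794 to 0.966) in control, 0.704 (0.656 to 0.754) in siStar-PAP and 0.675 (0.626 to 0.727) in siRBM10. In exons from 100 to under 150 nt it was 0.935, 0.856 and 0.866. Exons from 200 to under 500 nt had the highest ratios, 1.12 (1.04 to 1.20), 1.21 (1.16 to 1.26) and 1.18 (1.13 to 1.23). Exons from 500 to under 1000 nt had ratios of 1.01, 1.138 and 1.10, and exons of 1000 nt or more 0.957, 1.04 and 1.07. The median exon around a summit was 192 nt long in control, 210 nt in siStar-PAP and 207 nt in siRBM10, beside 186 nt for a base drawn from all reference CDS. Within the same GC class the ratio of exons under 100 nt was 0.975 in control, 0.844 in siStar-PAP and 0.812 in siRBM10.

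**Figure D3:**
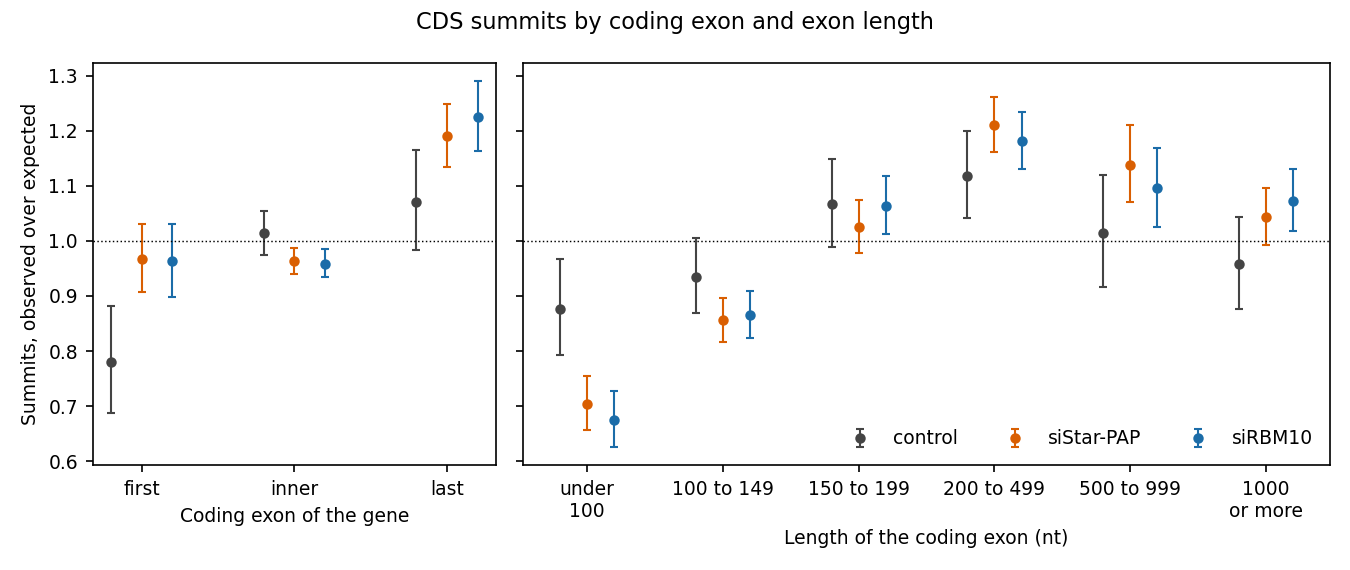
Observed over expected summits by coding exon of the gene (left) and by length of the coding exon in nt (right), with exact 95% Poisson intervals and a dotted line at 1. Last coding exons were at 1.19 in siStar-PAP and 1.23 in siRBM10, first coding exons at 0.780 in control, and exons under 100 nt at 0.704 and 0.675 in the depleted libraries.

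Coding sequences differed in density by chromosome. In siStar-PAP the density was highest on chromosomes 19 and 17, gene-dense chromosomes rich in G and C, at 474.6 and 422.7 summits per Mb of CDS, and lowest on chromosome 4 at 154.4. In siRBM10 it was highest on chromosomes 19 and 21, at 382.9 and 380.9, and lowest on chromosome 4 at 143.1. In control it was highest on chromosomes 13 and 18, at 160.8 and 153.0, and lowest on chromosomes 19 and 22, at 77.95 and 64.3.

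Genes with a CDS summit numbered 2977 in control, 15.8% of the 18893 genes, 6095 in siStar-PAP (32.3%) and 5613 in siRBM10 (29.7%). With p at most 0.01, control had 1634 and siStar-PAP 4905. A CDS summit in control and none in siStar-PAP was found in 1635 genes, 8.65% of all, and the reverse in 4753 genes, 25.2%. A CDS summit in control and none in siRBM10 was found in 1762 genes, 9.33%, and the reverse in 4398 genes, 23.3%. Most genes had a single summit, 85.1% of the genes hit in control, 69.1% in siStar-PAP and 71.2% in siRBM10, and 5 or more were found in 6, 139 and 96 genes. Longer CDS were hit more often. In the quartile of genes with the shortest CDS, up to 789 nt, 4.94% had a summit in control, 15.0% in siStar-PAP and 11.7% in siRBM10, and in the quartile with the longest, from 2070 nt, 31.5%, 56.1% and 52.9%. Per kb of CDS the shortest and longest quartiles were closer, 0.0972 and 0.112 in control, 0.314 and 0.290 in siStar-PAP and 0.247 and 0.258 in siRBM10.

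CDS summits lay near a summit of another library more often than summits in general, except for depleted-library summits beside control. Within 500 bp of a siRBM10 summit lay 30.4% (29.5 to 31.3) of the siStar-PAP CDS summits, beside 16.4% of all siStar-PAP autosomal summits, and the reverse share was 36.0% (35.0 to 37.0) beside 18.2%. Of the control CDS summits, 22.7% lay within 500 bp of a siStar-PAP summit and 17.1% within 500 bp of a siRBM10 summit, beside 10.7% and 8.79% of all control summits. Seen from the depleted libraries, a control summit was near 9.73% of siStar-PAP and 9.41% of siRBM10 CDS summits, below the 13.6% and 12.3% of all their summits. The very same base was the summit for 94 of 9778 siStar-PAP CDS summits in siRBM10, 0.961% beside 0.389% of all siStar-PAP summits. Summit density differed between CDS and the whole autosomes in every library, and its part in these shares was not tested.

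The densest genes shared no name between control and the depleted libraries. Among genes with a CDS of at least 1000 nt and at least 2 summits, the control order was led by RSRC1, a splicing-related protein, with 2.0 summits per kb, LSAMP, a neuronal adhesion protein, with 1.97, PRSS55, a serine protease, with 1.89, and PANK3, a pantothenate kinase of coenzyme A synthesis, with 1.80. BORA, an activator of Aurora A kinase, had 1.79, NFE2, a blood-cell transcription factor, 1.79, GBP1, an interferon-induced GTPase, 1.69, ZNF718 1.65, and ABRAXAS1, a subunit of a BRCA1 complex, 1.63. Each of these densities rested on 2 or 3 summits. In siStar-PAP none of these 9 had a summit but GBP1 with 1, and in siRBM10 none but PANK3 with 1.

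In siStar-PAP the order was led by SMAD4, the shared transducer of TGF-beta signals, with 4.23 summits per kb, MAP2K4, a kinase that activates JNK, with 4.18, and RUNX1, a transcription factor of blood formation, with 4.17. PTGIS, the synthase of prostacyclin, had 3.33, WT1, a transcription factor of kidney development, 3.19, ARSG, a lysosomal sulfatase, 3.17, STK11, a kinase that activates AMPK, 3.08, TMEM120B 2.95 and CCDC97 2.92. In siRBM10 the densest genes included MAP2K4 with 5.01, SMAD4 with 4.83, WT1 with 4.47, CSNK1D, a casein kinase, with 3.21, EEF2, the elongation factor that moves the ribosome along mRNA, with 3.11, STK11 with 3.08, the glycolytic enzyme ENO1 with 3.07, LYPD3 with 2.89 and RUNX1 with 2.78. RUNX1 and LYPD3 had 2 and 1 summits in control, and the others named in these 2 lists had none there. ARSG, TMEM120B and CCDC97 had none in siRBM10.

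**Figure D4:**
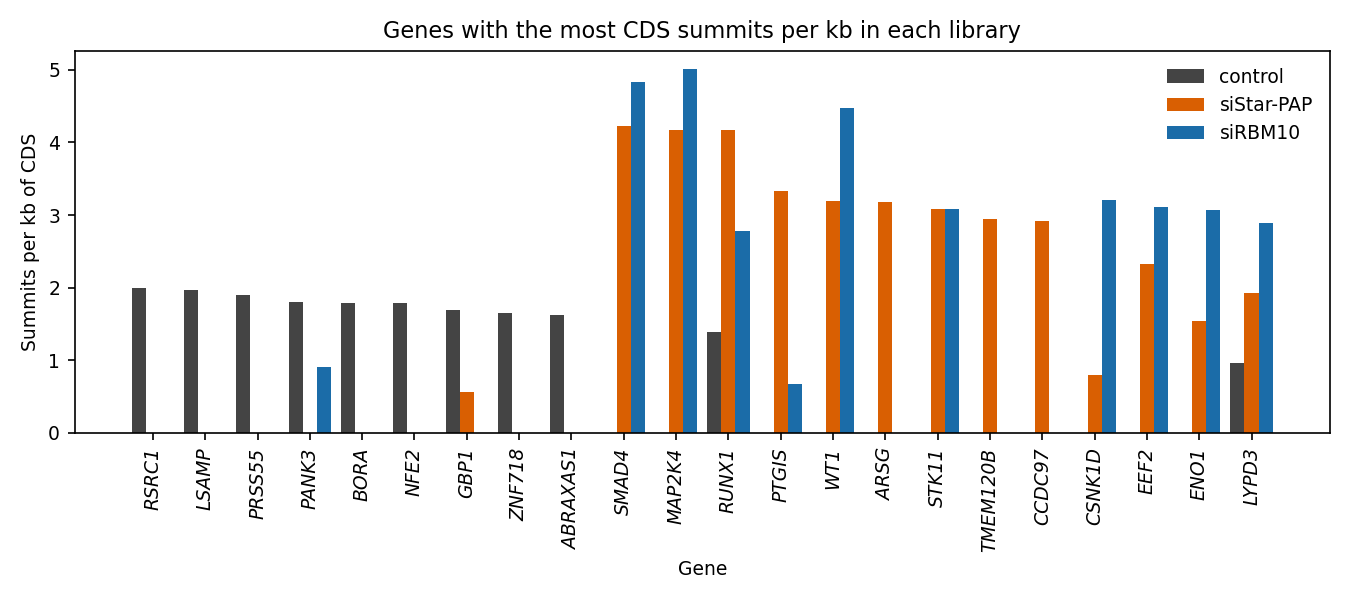
Summits per kb of reference CDS in the 3 libraries for 22 genes that were among the 10 densest in at least 1 library. Control bars reached 2.0 at RSRC1, and the depleted libraries reached 4.23 at SMAD4 and 5.01 at MAP2K4, genes without a control summit.

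In SMAD4, 7 of 11 coding exons held a siStar-PAP summit and 8 a siRBM10 summit, 1 in each exon, and 7 exons held both. The summits of exons 2, 5 and 8 fell on the same base in the 2 libraries. Scores ran from 2.92 in exon 2 to 15.0 in exon 11 in siStar-PAP and from 6.31 in exon 10 to 26.4 in exon 11 in siRBM10. In MAP2K4, exons 3, 7, 8 and 10 of 11 held summits of both libraries, those of exon 10, which is 46 nt long, on the same base. EEF2 held 6 siStar-PAP summits from exon 3 to exon 15 and 8 siRBM10 summits from exon 2 to exon 15, spread over the whole reading frame. In BORA and GBP1, the 3 control summits of each gene lay in 3 exons with scores of 2.49 or less.

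By number rather than density, the longest coding sequences led. TTN, the giant protein of the sarcomere, had 13 control, 13 siStar-PAP and 12 siRBM10 summits over 107973 nt of CDS, 0.120, 0.120 and 0.111 per kb. In control it was followed by MACF1, a linker of actin and microtubules, with 7, DNAH9, an axonemal dynein, with 6, ANKRD12 with 5 and DST, a cytoskeletal linker, with 5. AHNAK, a giant scaffold protein coded mainly by a single exon, had 2 control, 18 siStar-PAP and 15 siRBM10 summits. RNF213, a large ubiquitin ligase, had 0, 14 and 15, RYR1, the calcium channel of muscle, 1, 14 and 10, and UBR4, a ubiquitin ligase, 2, 11 and 10. KMT2D, a histone methyltransferase, had 2, 10 and 14, and SRRM2, a scaffold of nuclear speckles, 0, 6 and 12.

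The strongest single summits lay in different genes in control and in the depleted libraries. In control the highest scores were in DSPP, a dentin protein, at 17.4, MUC4, a membrane mucin, at 13.3 and 10.7, GOLGA6L2 at 10.6 and AFF3, a nuclear transcription-related protein, at 9.07. The DSPP summit lay in a last coding exon of 2781 nt, and the MUC4 summits in an inner exon of 12708 nt, both known for tandem repeats, where unique mapping is less certain. In siStar-PAP they were in LUC7L3, a splicing-related protein, at 34.3, PIK3CA, the catalytic subunit of a lipid kinase, at 21.9, the actin gene ACTG1 at 20.1, WT1 at 17.0 and RUNX1 at 16.7. ACTG1 and HSP90AA1 have close paralogs and pseudogenes that can share reads. In siRBM10 they were in LUC7L3 at 28.1, SMAD4 at 26.4, WT1 at 26.0, RUNX1 at 23.1 and HSP90AA1, a cytosolic chaperone, at 21.5. The LUC7L3 summits of the depleted libraries lay in the same exon, exon 8 of 10. All these depleted-library summits had a summit of the other depleted library within 500 bp, and those of LUC7L3 and WT1 also had a control summit there. Of the control summits, those of DSPP, GOLGA6L2 and MUC4 at 13.3 had summits of both depleted libraries within 500 bp. The MUC4 summit at 10.7 had one of siRBM10 alone, and that of AFF3 had neither. Scores were not compared between lists, since they depend on depth.

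Genes were grouped by function from 23 lists of symbol patterns, which can include members of other function, and the density of each list was set beside that over all genes, 0.109 per kb in control, 0.285 in siStar-PAP and 0.254 in siRBM10. The median gene had no summit in any library over all genes and in 15 of the 23 lists. The median density was above 0 in siStar-PAP for the 3′-end processing factors (0.511 per kb), the splicing factors (0.331) and the aminoacyl-tRNA synthetases (0.317), in siRBM10 for the kinesins (0.347), in control for the collagens (0.0566), in both depleted libraries for the chromatin regulators (0.374 and 0.269) and the mucins (0.234 and 0.0689), and in every library for the dynein and myosin heavy chains (0.112, 0.172 and 0.172).

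Genes of the cytosolic ribosome and translation factors had many summits per kb of CDS in the depleted libraries. The 82 cytosolic ribosomal proteins had 0.436 times the density of all genes in control, from 2 summits, 3.01 times (2.11 to 4.16) in siStar-PAP and 2.91 times (1.98 to 4.13) in siRBM10. RPL13 had 0, 3 and 1 summits and RPL8 had 0, 1 and 3. In this list 2, 30 and 26 genes had a summit, 2.44%, 36.6% and 31.7% of its members. In the depleted libraries these shares were near those of all genes, 32.3% and 29.7%. The median CDS of the ribosomal protein genes was 453 nt long, beside 1281 nt over all genes. These genes have many processed pseudogenes that can share reads. The 66 translation factors had 0.735, 1.97 (1.49 to 2.56) and 2.02 (1.501 to 2.65) times the density of all genes and 7, 30 and 25 genes with a summit, among them EIF3A, the largest subunit of an initiation factor, with 0, 5 and 7, and EIF4G1, a scaffold of initiation, with 0, 2 and 5. The 34 aminoacyl-tRNA synthetases, which load tRNAs, had 1.28, 1.28 and 1.49 times, with AARS1 at 0, 4 and 4 summits, and every interval included 1. The 78 mitochondrial ribosomal proteins had 1.08, 0.9 and 0.933 times, with 6, 13 and 12 genes hit and intervals that included 1. Background shares of genes hit were 15.8%, 32.3% and 29.7%.

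Genes of RNA processing and chromatin followed. The 113 splicing factors and hnRNPs had 0.992, 1.90 (1.54 to 2.32) and 1.75 (1.38 to 2.19) times the density of all genes, and 18, 58 and 53 of them were hit. PRPF8, the core scaffold of the spliceosome, had 1, 8 and 6 summits, and SNRNP200, a spliceosomal helicase, 1, 5 and 2. The 32 factors of 3′-end processing, the function of Star-PAP, had 1.45, 1.94 (1.35 to 2.70) and 1.18 (0.711 to 1.85) times, and 6, 21 and 12 were hit. SYMPK, a scaffold of the cleavage complex, had 0, 3 and 5 summits, and WDR33, which binds the poly(A) signal, 2, 2 and 1. The 64 chromatin regulators had 0.847, 1.46 (1.21 to 1.75) and 1.67 (1.38 to 1.99) times, and 17, 43 and 42 were hit, with the methyltransferase genes KMT2B at 0, 8 and 9 summits and KMT2C at 2, 4 and 10. The 73 histone genes had 1.20, 2.30 and 2.84 times, with 4, 20 and 22 genes hit. These were 5.48%, 27.4% and 30.1% of the list, beside 15.8%, 32.3% and 29.7% of all genes. The median histone CDS was 390 nt long, beside 1281 nt over all genes. Histone gene copies are near-identical and their single reads cannot be assigned with confidence. The 497 zinc finger proteins named ZNF had 1.001, 1.09 and 1.02 times, and the 39 HOX genes 0.258, 1.68 and 1.33 times, from 1, 17 and 12 summits.

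Olfactory receptors were dense in control and sparse in the depleted libraries, and for other genes of specialised tissues most intervals included 1. The 389 olfactory receptors, odorant receptors with a role in the nose, had 1.80 times (1.405 to 2.26) the density of all genes in control, 0.277 times (0.185 to 0.398) in siStar-PAP and 0.525 times (0.389 to 0.694) in siRBM10, with 71, 28 and 45 genes hit. With p at most 0.01 the control value was 1.45 times (0.969 to 2.08), an interval that included 1, and those of the depleted libraries were 0.308 and 0.659 times. Keratins and keratin-associated proteins had 1.72 times (1.10 to 2.56) in control, 1.34 in siStar-PAP and 0.954 in siRBM10. The 42 collagens had 1.35, 0.877 and 0.750 times, with 21, 20 and 19 genes hit, and COL4A1, a basement membrane collagen, at 3, 3 and 2 summits. The 53 clustered protocadherins had 0.515, 0.714 and 0.387 (0.212 to 0.650) times, and the 16 mucins 0.737, 0.924 and 0.749 times. The 99 potassium, sodium and calcium channels had 1.04, 0.862 and 0.722 (0.531 to 0.961) times, and the 357 solute carriers 1.07, 0.948 and 0.818 (0.680 to 0.976) times. The part of GC content and CDS length in the values of the lists was not tested.

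Among the remaining lists, the 71 heat shock proteins and DnaJ cochaperones had 0.747, 1.43 and 1.39 times the density of all genes, with HSP90AB1 at 0, 3 and 5 and HSPA8 at 0, 3 and 3 summits, and HSPG2, counted by its symbol, codes for the matrix protein perlecan. The 47 proteasome subunits had 1.61, 1.37 and 1.31 times, and the 81 subunits of oxidative phosphorylation 0.401, 1.15 and 1.47 times, from 2, 15 and 17 summits. The 28 dynein and myosin heavy chains had 1.25, 0.855 and 0.960 times, with MYH10, a non-muscle myosin, at 0, 7 and 8 summits. The 38 kinesins had 0.687, 0.631 (0.404 to 0.939) and 1.12 times. Apart from this value and that of the heat shock list in siStar-PAP (1.04 to 1.91), the intervals of these lists included 1. A further list held some of the mRNAs that the study measured one by one, chosen partly on these samples and so no independent evidence, and GCLC, its non-target control. Of these 10 mRNAs, a CDS summit was found in 3 in control, 2 in siStar-PAP and 4 in siRBM10. That was 30%, 20% and 40%, beside 15.8%, 32.3% and 29.7% of all genes. PNISR had 1, 1 and 3 summits, GCLC 1, 0 and 2, LHX9 0, 2 and 1, COQ2 1, 0 and 0 and IFRD1 0, 0 and 1, while TP73, GAD1, RRAS2, BPNT1 and IGF2 had none in any list.

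**Figure D5:**
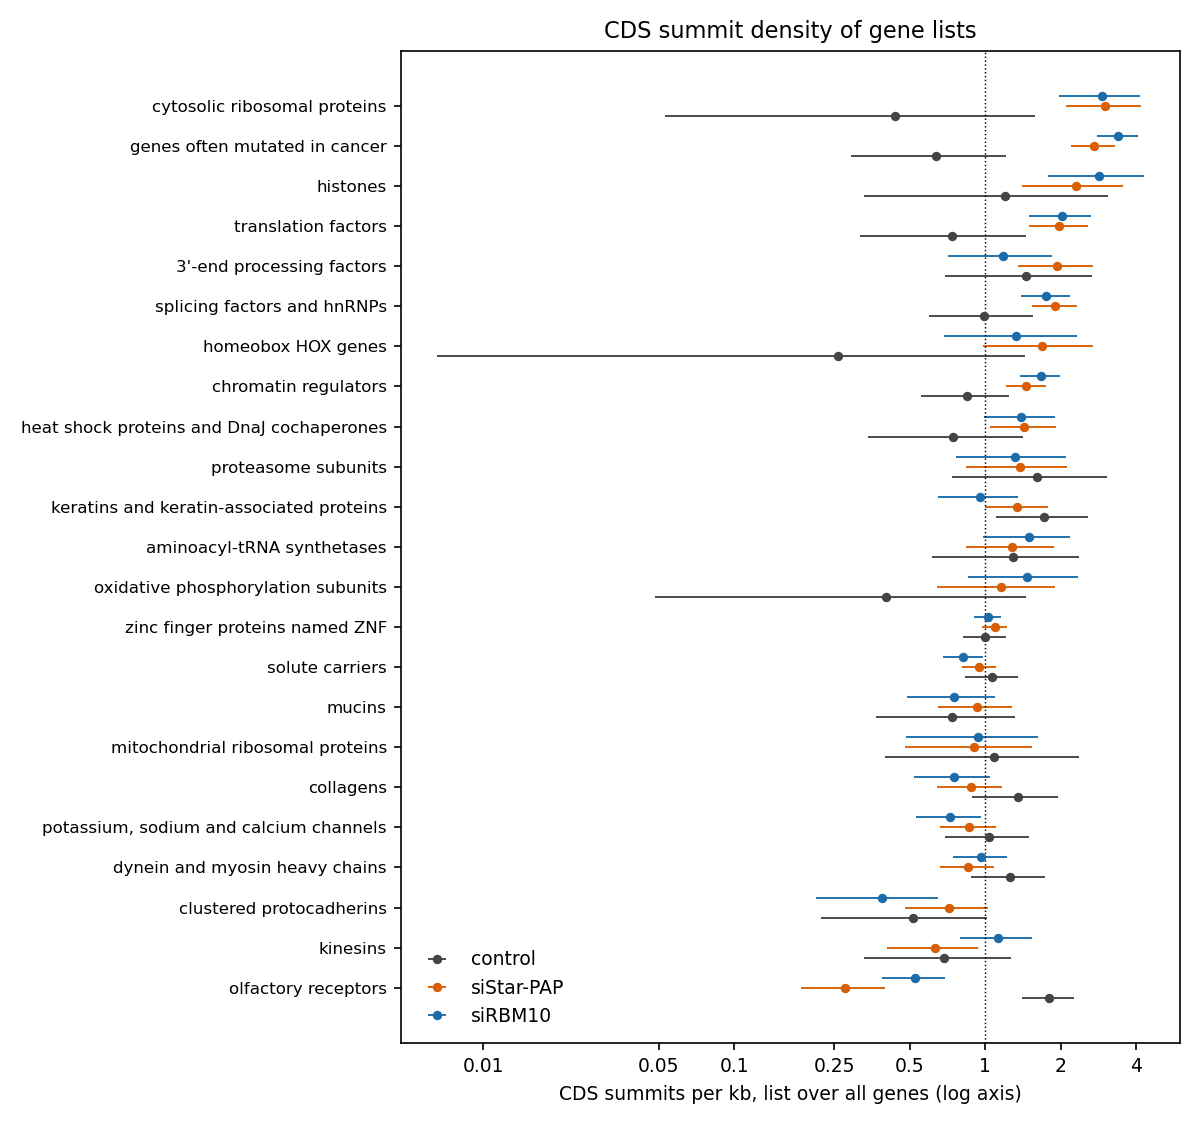
CDS summits per kb of each gene list over that of all genes, on a log axis, with exact 95% Poisson intervals, a dotted line at 1, and lists ordered by siStar-PAP. Cytosolic ribosomal proteins were at 3.01 in siStar-PAP and 2.91 in siRBM10 against 0.436 in control, and olfactory receptors at 1.80 in control against 0.277 and 0.525.

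Genes such as SMAD4 and STK11 near the top of the density order prompted a further list of 50 genes often mutated in cancer, drawn up after their values were seen, so its counts are a description. In control, 6 of the 50 genes had a CDS summit, 12% beside 15.8% of all genes, in siStar-PAP 39 (78% beside 32.3%) and in siRBM10 37 (74% beside 29.7%). They held 9, 100 and 111 summits. Their density was 0.636 times (0.291 to 1.21) that of all genes in control, 2.71 times (2.20 to 3.29) in siStar-PAP and 3.37 times (2.78 to 4.06) in siRBM10. The introns of the same genes had 0.129 summits per kb in control, 0.117 in siStar-PAP and 0.109 in siRBM10, beside 0.0694, 0.771 and 0.856 in their CDS. Of their 829 coding exons, 1.09% were hit in control, 11.9% in siStar-PAP and 13.3% in siRBM10, beside 1.86%, 4.66% and 4.15% of all coding exons.

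Almost every summit of these genes in the depleted libraries was alone in its exon, with 100 siStar-PAP summits in 99 exons and 111 siRBM10 summits in 110. This was not particular to these genes. Over all genes, the 9274 siStar-PAP and 8258 siRBM10 placed summits hit 4.66% and 4.15% of 188069 coding exons, so most were alone there too. The summits of both depleted libraries also lay close together in these genes. Of the 100 siStar-PAP summits, 81 lay within 500 bp of a siRBM10 summit and 13 on the same base. The shares over all siStar-PAP CDS summits were 30.4% and 0.961%. Of the 111 siRBM10 summits, 93 lay within 500 bp of a siStar-PAP summit, beside 36.0% of all siRBM10 CDS summits. Within 500 bp of a control summit lay 12 of the 100 siStar-PAP and 10 of the 111 siRBM10 summits. Over all CDS summits of those lists these shares were 9.73% and 9.41%. Their median score was 4.70 in siStar-PAP and 7.43 in siRBM10, beside 2.54 and 2.66 over all CDS summits of those lists, and 1.33 in control beside 2.01. ATM, a kinase of the DNA damage response, had 2, 8 and 9 summits, EGFR, the receptor of epidermal growth factor, 1, 7 and 6, ABL1, a tyrosine kinase, 0, 4 and 5, and SMO, the transducer of Hedgehog signals, 0, 4 and 4. KDR, PDGFRA, RB1, JAK2 and PTPN11 had none in any list. The part of fragments from another library, such as one enriched for exons, in these counts, in the CDS share and in the fall from exon to intron was not tested, and the lists hold no value to test it.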

How the data were processed

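The authors immunoprecipitated Star-PAP from UV-crosslinked HEK293 cells and sequenced 1 library per condition. Per the submitters' processing notes, reads were checked with FastQC 0.72, trimmed with cutadapt 1.14, mapped to hg19 with BWA 0.7.12 and passed to MACS2. The methods describe tags of at least 18 nt, collapsed, and peaks called at a p-value of 0.05 against IgG. The 3 lists deposited by the authors hold summits of 1 bp with a score, the −log10 of the p-value. The IgG library entered only through peak calling, and read depth is not given in the lists, so precision is that of summit counts.

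Summits were annotated with GENCODE release 44 on hg19. Expected numbers were computed exactly from base counts. Genes named were, per library, the 10 densest (CDS of at least 1000 nt, at least 2 summits), the 5 with most summits, the genes of the 5 highest scores, up to 4 per list, TUT1 and 10 mRNAs that the study measured. Some of these genes are not reported here. Others, including 5 genes of the cancer list without summits and SMO, were chosen after their values were seen. Members and lists were chosen with earlier results of these data known. Alternatives were p at most 0.01, the 1000 summits of highest score, merged summits, another reference CDS, other base sets, distances and CDS lengths. Scripts ran under Python 3.11.15 with scipy 1.17.1, matplotlib 3.10.9, pandas 2.3.3 and numpy 2.4.6 and were tested on simulated data.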

Additional observations from a re-analysis of the deposited data

How the results depend on the processing

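The control CDS share lay below the base share of 1.26% over all summits (0.977%) and above it with p at most 0.01 (1.46%). Of 168 values outside the gene lists, 122 were labelled as staying and 46 as moved, and the gene numbers among them have no counting interval. Of 207 values of the gene lists, 202 stayed within the counting interval and 5 moved. The 5 were at p at most 0.01, in control keratins from 1.72 to 3.01, kinesins from 0.687 to 0.275 (0.0333 to 0.993), solute carriers from 1.07 to 1.46 (1.07 to 1.93) and ZNF proteins from 1.001 to 0.674 (0.469 to 0.937), and in siStar-PAP the channels from 0.862 to 0.57 (0.387 to 0.809), so that the last 4 intervals no longer included 1. The CDS share was 0.938%, 3.06% and 3.02% (control, siStar-PAP, siRBM10) on reference CDS alone, 1.46%, 2.81% and 2.61% with p at most 0.01, and 3.08% in siRBM10 with summits within 500 bp merged. With p at most 0.01, control had 1634 genes in place of 2977, and siStar-PAP had 4905 in place of 6095, a change labelled as staying. First coding exons were then at 0.889 (control) and 0.845 (siRBM10), and shares near a summit of another library at 24.1% (control beside siStar-PAP), 6.56% (siStar-PAP beside control), 25.05% (siStar-PAP beside siRBM10), 6.45% (siRBM10 beside control) and 29.4% (siRBM10 beside siStar-PAP). Within 100 bp these shares were 7.14%, 2.69%, 11.4%, 2.33% and 13.4%, and 5.37% for control beside siRBM10. Among the 1000 summits of highest score, the first decile of the CDS was at 0.742 (control), 0.758 (siStar-PAP) and 0.759 (siRBM10), the last decile at 1.19 (siRBM10), first coding exons at 0.877 (control), 0.901 (siStar-PAP) and 0.775 (siRBM10), last at 1.36 (siRBM10), and exons under 100 nt at 0.658 (control) and 0.512 (siStar-PAP). Within the same GC class, the first decile was at 0.929 and first coding exons at 0.95 in control, the last decile at 1.05 in siStar-PAP, last coding exons at 1.10 (siStar-PAP) and 1.12 (siRBM10), exons under 100 nt at 0.975, 0.844 and 0.812, and exons from 200 to under 500 nt at 1.04, 1.10 and 1.09. Drawn from all CDS, the latter were at 1.29 (siStar-PAP) and 1.26 (siRBM10). With a minimum CDS of 500 nt, 5, 3 and 3 of the 10 densest genes stayed among the 10, and with p at most 0.01, 2 in control. The cause of these shifts was not tested. The scores of the lists are not comparable, since the commonest control score lies below the score of 2 that p at most 0.01 requires and those of the other lists lie above it. Single libraries, unknown depth and peaks broader than most exons limit every value. No paired analysis was possible because each condition had 1 library and no result comes from a test.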
